A study of Mus musculus with 4 samples.

Results

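The 10 genes described here encode transcription factors that mark neurons born early in the embryonic nervous system. These genes were measured as RNA in mouse forebrain with and without a conditional knockout of the gene for the chromatin remodeller CHD7. They are Pou4f1, Isl1, Tbr1, Lhx1, Lhx5, Onecut1, Onecut2, Ebf1, Ebf2 and Ebf3. They were chosen by symbol, and all 10 were found among the 24982 genes of the deposited count table. RNA was sequenced from forebrain microdissected at E10.5, embryonic mid-gestation, in 2 libraries of conditional knockout (cKO) and 2 libraries of control embryos. The cKO libraries carried the genotype Sox1 cre+/-; Chd7 f/f, with both Chd7 alleles floxed and a Cre recombinase named for Sox1, a gene of early neural progenitors. The control genotype was Chd7 +/f, heterozygous for the floxed allele, and names no Cre, so an effect of the Cre allele cannot be told apart from that of Chd7 loss. Whether each library was 1 embryo or a pool is not stated, and the p-values therefore reflect variation among these 4 libraries, which may be technical.

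As background, the earliest neurons of the forebrain leave the ventricular zone around this stage and settle in the preplate of the cortex, in the mantle of the subpallium and in the diencephalon and hypothalamus. Proneural basic helix-loop-helix factors start their differentiation, and homeodomain, T-box and COE-family factors such as those encoded here then give each group its identity. Some of these factors mark Cajal-Retzius cells, the early reelin-secreting neurons at the cortical surface, and others mark subpallial, diencephalic or peripheral sensory neurons.

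In the cKO forebrain 2 of the 10 genes fell and 0 rose. Pou4f1 was 7.12-fold lower and Isl1 5.77-fold lower. Tbr1 was lower in both cKO libraries than in either control but did not pass the test, and its controls differed 3.24-fold from each other. Lhx5, the most abundant of the genes per unit of length, stood at 59.1 ± 4.1 CPM (read counts scaled to the size of each library) in cKO and 57.0 ± 1.1 CPM in control libraries (SD, n = 2 each). Of all 14235 genes tested, 3.70% were called in either direction, 2.13% lower and 1.57% higher, by edgeR's quasi-likelihood test with a Benjamini-Hochberg adjusted p under 0.05. At an unadjusted p under 0.05 the members counted 4 lower, with Tbr1 and Ebf1 added, and 0 higher, against 9.10% and 8.43% of all genes tested. DESeq2's Wald test with adjustment also gave 2 lower and 0 higher. By a separate description, both cKO libraries lay below both controls for 4 of the 10 genes and above both for 0, against 24.0% and 24.3% of all genes tested.

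**Figure D1:**
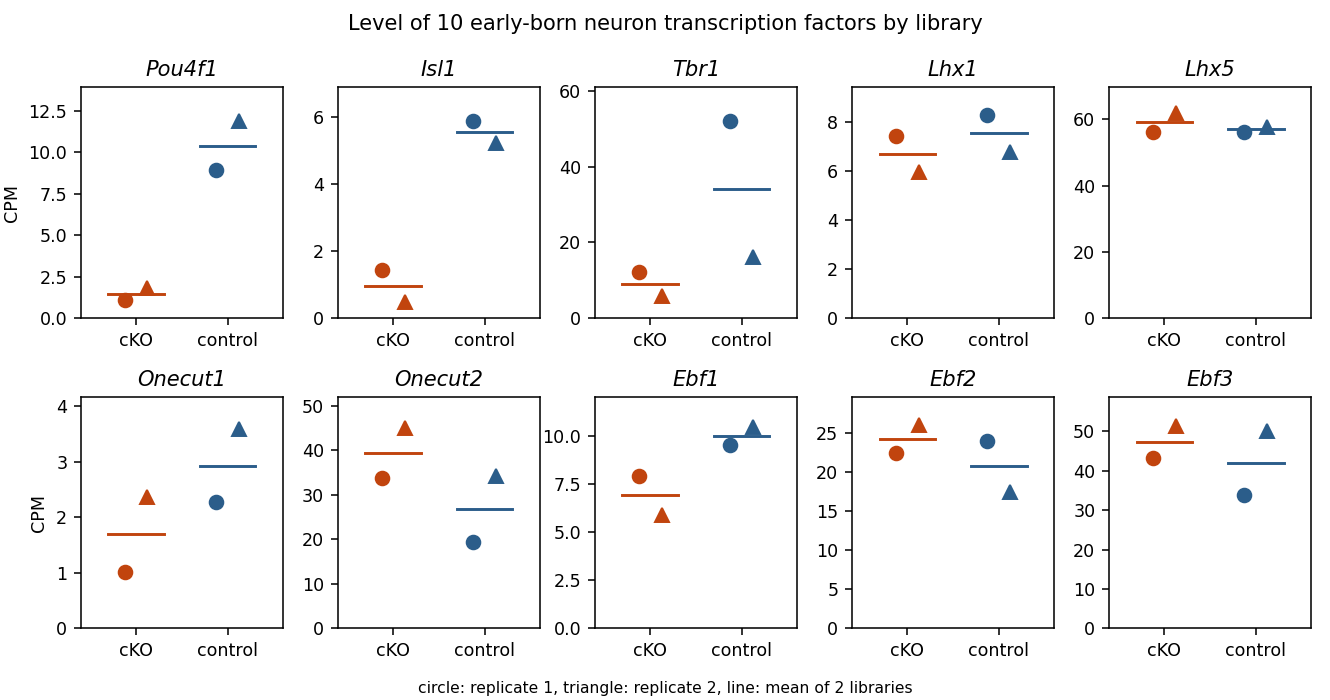
CPM of each of the 10 genes (vertical axes, each from 0) in the cKO and control libraries, with a point per library and a line at the mean of 2. Pou4f1, Isl1, Tbr1 and Ebf1 lie lower in both cKO libraries than in both controls, and the points of the other 6 genes overlap between the groups.

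The stretch before the start of Pou4f1 and Isl1 is shown because these are the members that fell together. The sequences are from RefSeq on GRCm38, read 5′ to 3′ on the minus strand, and capitals mark CAGCTG (an E-box of the kind bound by proneural factors) and GGGCGG (a GC box) on either strand. For Pou4f1 the window covers chr14:104468119-104468249 and for Isl1 chr13:116309689-116309938, each ending at the outermost RefSeq start of the gene.
Pou4f1: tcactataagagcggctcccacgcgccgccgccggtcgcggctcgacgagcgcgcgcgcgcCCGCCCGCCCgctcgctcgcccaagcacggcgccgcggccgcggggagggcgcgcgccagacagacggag
Isl1: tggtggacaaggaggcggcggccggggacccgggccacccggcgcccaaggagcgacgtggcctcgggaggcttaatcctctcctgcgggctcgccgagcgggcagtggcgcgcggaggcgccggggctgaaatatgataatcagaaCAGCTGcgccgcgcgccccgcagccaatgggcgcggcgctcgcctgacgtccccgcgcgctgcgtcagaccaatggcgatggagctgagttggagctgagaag

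Of the 10 genes, 7 had a promoter window in the RefSeq table: Pou4f1, Isl1, Lhx1, Onecut1, Tbr1, Ebf1 and Ebf3. The 250 bases before the start that the table gives were searched on both strands for the E-boxes CAGCTG and CAGATG, the homeodomain core TAATTA, the TATA box TATAAA, the GC box GGGCGG and the CCAAT box. That start is not always the outermost start of the gene. The windows of Tbr1 and Ebf3 and the Ebf1 window at chr11:44619978-44620227 lie inside the gene as annotated. CAGCTG occurred in the windows of 2 of the 7 genes, Pou4f1 and Isl1, and in 13.0% of all 32851 windows of that length. The Pou4f1 match lies just inside the outermost start. The 30 bases around each match are shown here with CAGCTG in capitals. They span chr14:104468100-104468129 for Pou4f1, across that start, and chr13:116309774-116309803 for Isl1.
Pou4f1: gacagacggagaCAGCTGctgtctgtcagc
Isl1: tgataatcagaaCAGCTGcgccgcgcgccc

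TAATTA was found in the window of Tbr1 alone among the 7 genes and in 4.84% of all windows. It stood there in 2 copies, in capitals in the plus-strand stretch chr2:61804416-61804445, inside the annotated gene.
Tbr1: atccTAATTAatgtctatcTAATTAaatta
GGGCGG occurred in 4 of the 7 genes (Pou4f1, Onecut1, Tbr1 and Ebf3) and in 32.7% of all windows, and CCAAT in Isl1 and Lhx1 and in 33.8% of all windows. CAGATG and TATAAA occurred in 0 of the 7 genes, and in 14.4% and 12.4% of all windows. The windows of Pou4f1 and Isl1 were 78.0% and 71.2% G and C. Those of members not called ran from 40.0% for 1 of the Ebf1 windows over 45.2% for Tbr1, 64.8% for Lhx1 and 71.6% for Onecut1 to 80.0% for Ebf3, and the median over all windows was 52.4%. These matches are letters in a window and say nothing of binding.

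The targeted gene was checked before the members. Chd7 (GRCm38 chromosome 4, 8690402 to 8868449) was at 136 and 132 CPM in cKO libraries and at 339 and 345 CPM in control libraries, a level 39.1% of control. Total counts per library were 16581252 and 17096522 for cKO and 16609514 and 16916602 for control. The forebrain markers Emx2 and Lhx2 were present in all 4 libraries. Lhx2 fell (log2 fold change -0.87, SE 0.15, edgeR adjusted p = 0.0295), although not without cKO replicate 2 (adjusted p = 0.118), and Emx2 was at 154 and 138 CPM in cKO and 179 and 130 CPM in control libraries. In dissected tissue, fewer cells of a type and less RNA per cell cannot be told apart, and this holds for every value below.

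Pou4f1 (chromosome 14, 104461675 to 104468118) encodes a POU-homeodomain factor of sensory ganglia, of the habenula and of other early brain neurons. It had 18 and 31 counts in cKO and 149 and 203 counts in control libraries, or 1.08 and 1.83 CPM against 8.94 and 11.9 CPM. The groups lay far apart, with the highest cKO library well under the lowest control. The log2 fold change of -2.83 (SE 0.30, 95% interval -3.54 to -2.13) had an edgeR adjusted p of 0.00464, and it stayed past the threshold when any library was left out, at -2.50 to -3.26. In the authors' deposited table the log2 fold change of Pou4f1 was -2.84 with an adjusted p of 4.49e-10.

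Isl1 (chromosome 13, 116298270 to 116309688) encodes a LIM-homeodomain factor of motor and sensory neurons and of striatal projection neurons. It had 24 and 8 counts in cKO and 98 and 89 counts in control libraries, or 1.45 and 0.473 CPM against 5.88 and 5.24 CPM. The controls were close to each other, while cKO replicate 1 was 3.06-fold above cKO replicate 2. The log2 fold change was -2.53 (SE 0.45, 95% interval -3.58 to -1.48, adjusted p = 0.0292). It was -3.53 without cKO replicate 1 (adjusted p = 0.0105), and it no longer passed without cKO replicate 2 (-1.93, adjusted p = 0.0676) or control replicate 1 (-2.44, adjusted p = 0.0719). Isl1 met the count filter in 1 of 2 cKO and 2 of 2 control libraries, whereas the other 9 genes met it in all 4. In the authors' deposited table the log2 fold change of Isl1 was -2.54 with an adjusted p of 0.000245.

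Tbr1 (chromosome 2, 61802863 to 61814114) encodes a T-box factor of early-born glutamatergic neurons of the cortex, including those of the preplate. It was at 12.3 and 5.97 CPM in cKO and at 52.1 and 16.1 CPM in control libraries. Both cKO libraries were below both controls, and control replicate 1 was 3.24-fold above control replicate 2. The log2 fold change was -1.90 (SE 0.54, 95% interval -3.16 to -0.64) with an edgeR adjusted p of 0.119. It was -0.82 with control replicate 1 left out (adjusted p = 0.374) and -2.51 with control replicate 2 left out (adjusted p = 0.00103). The T-box relative Eomes, of intermediate progenitors, was at 37.9 and 25.1 CPM in cKO and 87.6 and 46.8 CPM in control libraries (-1.09, SE 0.29, adjusted p = 0.101). Its log2 fold change was -0.57 with control replicate 1 left out (adjusted p = 0.261) and -1.48 with control replicate 2 left out (adjusted p = 0.00149). The proneural gene Neurog2, named here after its values were seen, was at 25.1 and 28.8 CPM in cKO and 85.0 and 44.5 CPM in control libraries (-1.26, SE 0.27, adjusted p = 0.0504). In all 3 genes control replicate 1 was the highest library.

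The LIM-homeodomain genes Lhx1 and Lhx5 act in the hypothalamus and in Cajal-Retzius cells, and Lhx1 acts in the head organizer. Lhx5 (chromosome 5, 120431886 to 120441457) was at 56.2 and 61.9 CPM in cKO and at 56.2 and 57.8 CPM in control libraries. The 4 libraries nearly coincided, and the 95% interval of the log2 fold change ran from -0.12 to 0.22 (0.05, SE 0.07, adjusted p = 0.787), that is from 0.920 to 1.17 times control. Its sign turned to -0.02 without cKO replicate 2. Lhx1 (chromosome 11, 84517975 to 84525534) was at 7.41 and 5.97 CPM in cKO and at 8.28 and 6.77 CPM in control libraries. These groups overlapped, with an interval of 0.635 to 1.25 times control.

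LIM-homeodomain proteins work with the cofactor LDB1 and compete for it with LMO proteins. Of the 10 tested genes for such partners, Lmo3 fell and 0 rose, with a median log2 fold change of -0.10 beside 0.00 over all genes tested. Lmo3 was at 11.1 and 15.8 CPM in cKO and at 34.1 and 28.7 CPM in control libraries (-1.22, SE 0.18, adjusted p = 0.0135). Ldb1 itself was at 286 and 283 CPM in cKO and at 293 and 299 CPM in control libraries.

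Onecut1 and Onecut2 encode cut-homeodomain factors of motor neurons, of horizontal cells of the retina and of several early brain neurons. Onecut1 (chromosome 9, 74861921 to 74889648) had 17 and 40 counts in cKO and 38 and 61 counts in control libraries. With so few counts its interval was wide, from 0.276 to 1.22 times control. Onecut2 (chromosome 18, 64340032 to 64398488) was at 33.7 and 45.0 CPM in cKO and at 19.3 and 34.1 CPM in control libraries. Its libraries overlapped narrowly, and its log2 fold change of 0.56 (SE 0.25, 95% interval -0.02 to 1.14, adjusted p = 0.304) became 1.03 with control replicate 2 left out (adjusted p = 0.0111) and 0.21 with control replicate 1 left out (adjusted p = 0.673). The paralog Onecut3 was at 2.83 and 2.90 CPM in cKO and at 2.58 and 5.77 CPM in control libraries, and its log2 fold change of -0.54 (adjusted p = 0.547) was 0.15 without control replicate 2.

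Ebf1, Ebf2 and Ebf3 encode helix-loop-helix factors of the COE family. Ebf1 is known from striatal projection neurons, and Ebf2 and Ebf3 from Cajal-Retzius cells. Ebf1 (chromosome 11, 44618100 to 45008096) had 131 and 100 counts in cKO and 159 and 179 counts in control libraries, or 0.809 and 0.606 RPKM (CPM per kilobase of exon) against 0.978 and 1.08 RPKM. The groups did not overlap, but the log2 fold change of -0.54 (SE 0.20, 95% interval 0.500 to 0.947 times control) had an edgeR adjusted p of 0.215. The paralog Ebf4 was at 5.73 and 4.85 CPM in cKO and at 8.76 and 9.59 CPM in control libraries (-0.79, SE 0.19, adjusted p = 0.0716). Neither passed the test.

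Ebf2 (chromosome 14, 67233292 to 67430952) was at 22.5 and 26.0 CPM in cKO and at 24.0 and 17.5 CPM in control libraries, with an interval of 0.897 to 1.53 times control. Ebf3 (chromosome 7, 137193671 to 137322805) was at 43.3 and 51.5 CPM in cKO and at 33.8 and 50.0 CPM in control libraries, with a 95% interval of -0.23 to 0.58 on the log2 scale. Both overlapped between the groups. The log2 fold change of Ebf3, 0.18, was -0.08 without control replicate 1. The remaining paralogs were near the limit of detection. Pou4f2 had 0 to 2 counts per library, Isl2 1 to 8 and Pou4f3 0 in each.

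**Figure D2:**
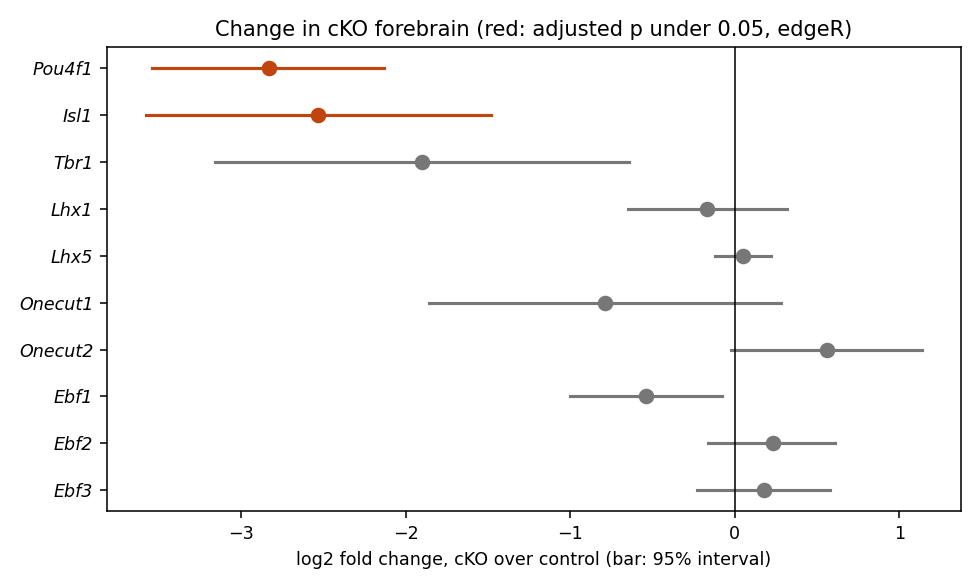
Log2 fold change (cKO over control, horizontal axis) of each gene from edgeR with its 95% interval, with genes called lower in red. Pou4f1 at -2.83 and Isl1 at -2.53 are called, Tbr1 and Ebf1 have intervals below 0 without a call after adjustment over all genes, and the other 6 intervals hold 0.

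Levels were set against each other only per length, as RPKM. In cKO libraries the order ran from Lhx5 at 22.0 RPKM over Ebf3 (5.13), Ebf2 (3.51), Onecut2 (2.42), Tbr1 (1.67), Lhx1 (1.64), Ebf1 (0.708), Onecut1 (0.412) and Pou4f1 (0.312) to Isl1 at 0.242 RPKM. Adjacent genes overlapped between Onecut2 and Tbr1, Tbr1 and Lhx1, Onecut1 and Pou4f1, and Pou4f1 and Isl1. In control libraries the order ran from Lhx5 at 21.2 RPKM over Tbr1 (6.21), Ebf3 (4.54), Ebf2 (2.99), Pou4f1 (2.24), Lhx1 (1.85), Onecut2 (1.64), Isl1 (1.40) and Ebf1 (1.03) to Onecut1 at 0.714 RPKM. There Tbr1 overlapped Ebf3, and the neighbours from Ebf2 through Pou4f1, Lhx1 and Onecut2 to Isl1 overlapped each other in turn. Pou4f1 thus stood at rank 9 in cKO and rank 5 in control libraries, and Tbr1 at rank 5 and rank 2.

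Leaving out each library in turn showed which values rested on a single library. Pou4f1 was lower in each of the 4 reduced fits and was called in each. Tbr1 and Onecut2 moved most with the choice of control library, and each was called only without control replicate 2.

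**Figure D3:**
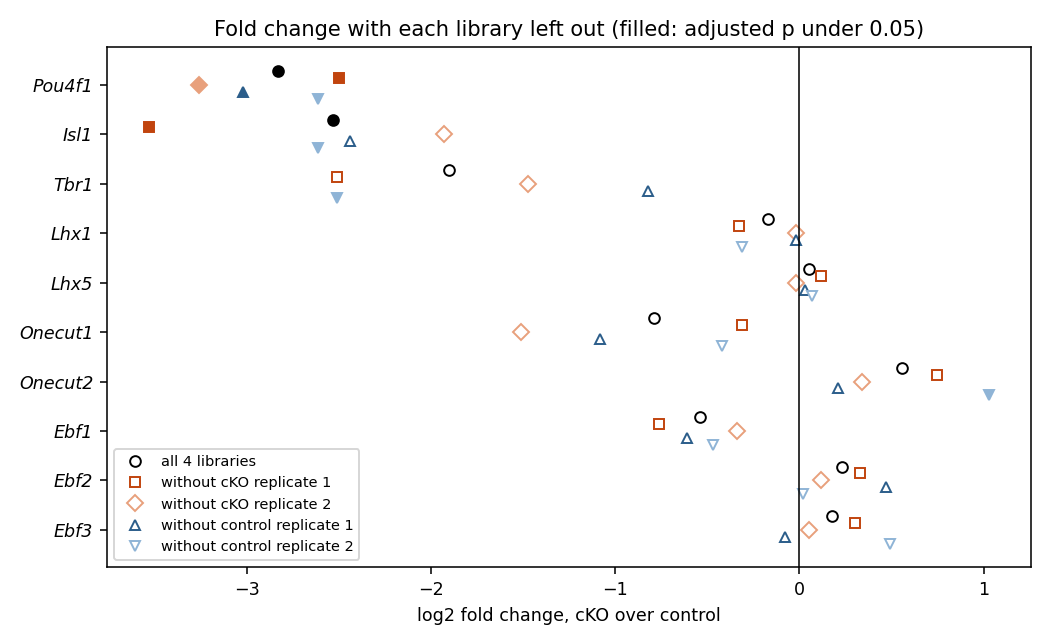
Log2 fold change (cKO over control, horizontal axis) of each gene with all 4 libraries and with each library left out; filled symbols have an adjusted p under 0.05. Pou4f1 is filled in all 5 fits, Isl1 in 3, and Tbr1 and Onecut2 only in the fit without control replicate 2.

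Of 20 pan-neuronal genes 5 fell and 0 rose, with a median log2 fold change of -0.55 against 0.00 over all genes tested. The smallest adjusted p-values among them were those of Elavl3, an RNA-binding protein of new neurons (55.2 and 53.7 CPM in cKO, 114 and 89.4 CPM in control libraries; -0.90, SE 0.11, adjusted p = 0.00776), and Mapt, which encodes tau (4.70 and 5.38 CPM in cKO, 12.7 and 16.4 CPM in control libraries; -1.52, SE 0.19, adjusted p = 0.00858). The summed level of the list was 1530 and 1660 CPM in cKO and 2350 and 2030 CPM in control libraries. Map1b, a microtubule-associated protein gene that was not called, made up the largest share of it, at 801 and 903 CPM in cKO and 1120 and 992 CPM in control libraries. With 1 library left out, the median of the list ran from -0.58 without cKO replicate 2 to -0.42 without control replicate 1.

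The 10 genes were therefore also given per 1000 CPM of that neuronal sum. Pou4f1 was at 0.711 and 1.10 in cKO and at 3.80 and 5.89 in control libraries, and Isl1 at 0.948 and 0.285 in cKO and at 2.50 and 2.58 in control libraries. These are the 2 genes whose cKO libraries both stayed below both controls on this scale, as did 3.26% of all genes tested. Tbr1 overlapped on this scale, at 8.06 and 3.59 in cKO and 22.1 and 7.93 in control libraries, and so did Ebf1 and Onecut1. The other 5 genes were above both controls, at 1.23 to 1.96 times the control mean, as were 79.0% of all genes tested, since the neuronal sum itself was lower in cKO libraries.

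**Figure D4:**
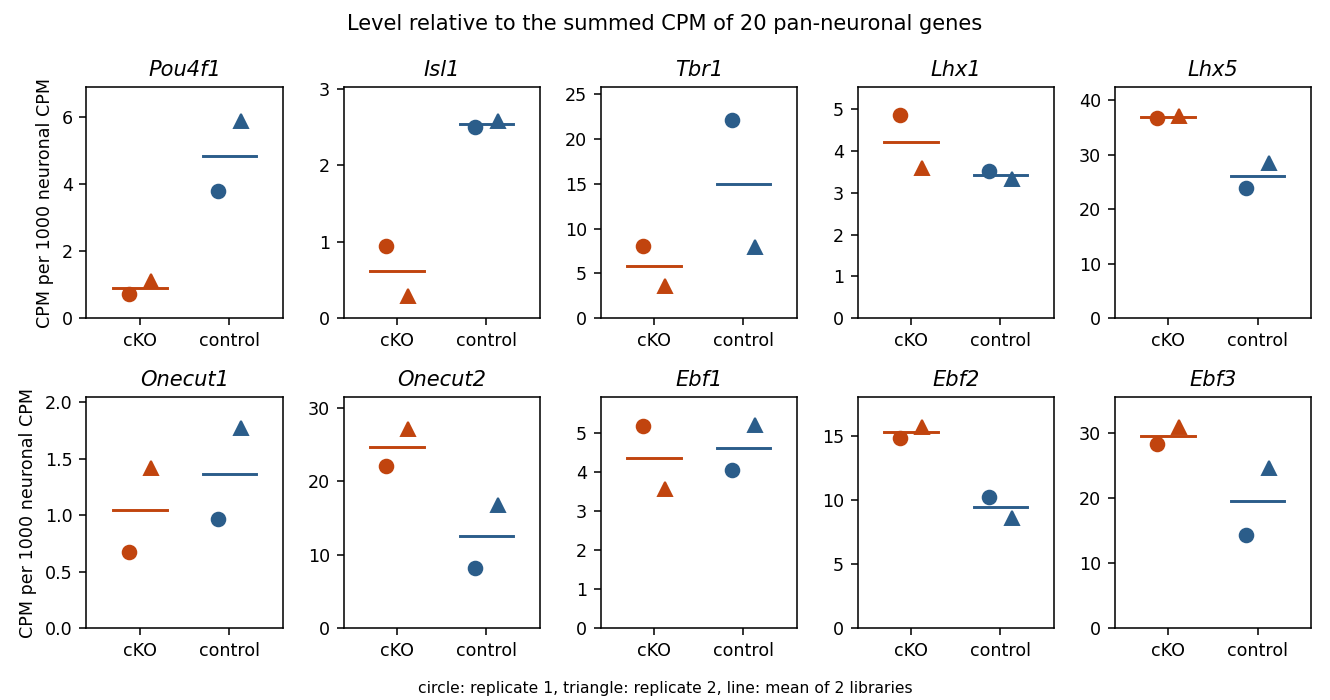
Level of each gene per 1000 CPM of the summed 20 pan-neuronal genes (vertical axes, each from 0) by library, with a line at the mean of 2. Pou4f1 and Isl1 remain below both controls in both cKO libraries, while Tbr1 and Ebf1 overlap.

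Of the 15 tested proneural and neurogenic genes, 7 fell and 0 rose, and their median stood at -0.87 (log2). St18 (4.40 and 4.67 CPM in cKO, 27.5 and 18.8 CPM in control libraries; -2.35, SE 0.22, adjusted p = 0.00306) and Myt1 (14.6 and 17.3 CPM in cKO, 49.9 and 36.0 CPM in control libraries; -1.43, SE 0.17, adjusted p = 0.00703) encode zinc finger factors of neuronal differentiation. The median of this list was -0.80 without cKO replicate 1 and -1.02 without cKO replicate 2. It was -0.64 without control replicate 1 and -1.06 without control replicate 2. The lists were drawn up with earlier results of the same libraries known, so their direction is no independent evidence.

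Of the 12 tested genes of Cajal-Retzius cells and the preplate, 2 fell and 0 rose, with a median of -0.18 (log2). Lhx9 is a LIM-homeodomain gene of early cortical and diencephalic neurons, and it is also 1 of the 3 lower diencephalon genes counted below. It was at 3.74 and 4.02 CPM in cKO and at 24.4 and 14.6 CPM in control libraries (-2.33, SE 0.27, adjusted p = 0.00623). The orphan nuclear receptor gene Nr4a2 was at 14.7 and 13.7 CPM in cKO and at 25.3 and 23.9 CPM in control libraries (-0.79, SE 0.12, adjusted p = 0.0148), a call lost without cKO replicate 2 (adjusted p = 0.0739) or control replicate 1 (adjusted p = 0.0563). Reln, which encodes reelin and was named after its values were seen, had 351 and 322 counts in cKO and 285 and 356 counts in control libraries, which overlapped. Trp73 (9.70 and 7.39 CPM in cKO, 12.8 and 6.83 CPM in control libraries) overlapped too. So did Calb2 (3.74 and 3.37 CPM in cKO, 9.72 and 2.59 CPM in control libraries). The median of the list was 0.01 without control replicate 1 and -0.43 without control replicate 2.

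**Figure D5:**
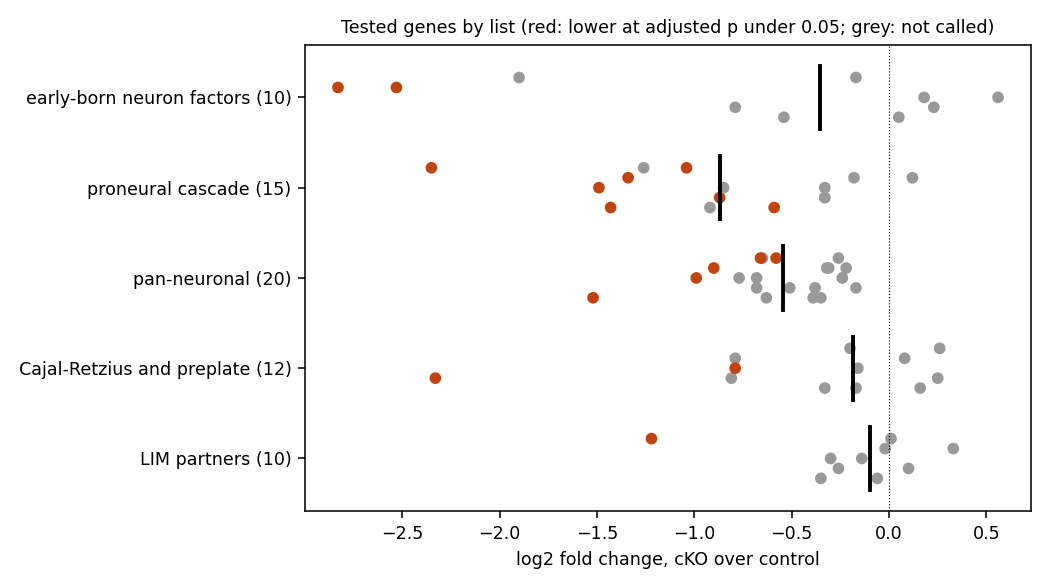
Log2 fold change (cKO over control, horizontal axis) of every tested gene in the 10 early-born neuron factors and in 4 related lists, with the number tested in brackets, called decreases in red and a bar at each median. Medians run from -0.87 for the proneural list to -0.10 for the LIM partners, and the early-born neuron factors stand at -0.35.

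The genes nearest in pattern to the called members were found by the smallest root mean square difference of centred log2 CPM over the 4 libraries, among 10816 candidates for Pou4f1 and 10817 for Isl1 whose mean reached 5 CPM. For Pou4f1 they were the ephrin receptor gene Epha5 (difference 0.19; 1.15 and 1.48 CPM in cKO, 9.42 and 14.1 CPM in control libraries) and the subpallial homeobox gene Gsx2 (0.30; 1.27 and 1.36 CPM in cKO, 10.3 and 8.95 CPM in control libraries). For Isl1 they were the dachshund family gene Dach2 (0.16; 2.77 and 1.24 CPM in cKO, 12.2 and 13.0 CPM in control libraries) and the subpallial homeobox gene Dlx2 (0.33; 4.04 and 1.36 CPM in cKO, 23.3 and 22.5 CPM in control libraries). In Dach2 and Dlx2, as in Isl1, cKO replicate 1 was above cKO replicate 2, a likeness that the choice by pattern brings with it.

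The nearest protein-coding genes in the count table were looked up on either side of each member, 2 per side. Of the 40, 34 were tested, 1 was lower and 1 higher, beside 3.70% of all genes tested. Both were named after their values were seen. Ednrb, an endothelin receptor gene 617 kb from Pou4f1, was at 12.2 and 12.7 CPM in cKO and at 35.6 and 28.1 CPM in control libraries (-1.36, SE 0.14, adjusted p = 0.00439). Emb, an adhesion molecule gene 911 kb from Isl1 with Parp8 between them, was at 154 and 162 CPM in cKO and at 80.4 and 93.5 CPM in control libraries (0.86, SE 0.08, adjusted p = 0.00268). Psmd14, also picked after its values were seen, which lies 2.49 kb from Tbr1, was at 135 and 141 CPM in cKO and at 150 and 136 CPM in control libraries. Exons of Lhx5, Onecut1, Ebf2 and Ebf3 overlap those of 4 predicted genes in GENCODE that the count table does not list, 3 of them on the opposite strand, and counting without strand cannot separate such reads.

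Pou4f1 and Isl1 also mark cranial sensory ganglia, which a forebrain dissection could carry along. Of the ganglion and placode list 0 of 8 tested genes were called in either direction. The list had a median log2 fold change of 0.20, which was 0.49 without control replicate 2 and -0.28 over 9 tested genes without control replicate 1. Its summed level was 84.5 and 69.3 CPM in cKO and 54.7 and 87.5 CPM in control libraries. Among its sensory genes, Prph was at 0.0589 to 0.300 CPM and Tlx3 at 0 to 0.765 CPM. Isl1 and Isl2 also mark motor neurons, whose genes Mnx1 and Chat had 0 counts in every library.

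Other tissues varied between libraries as follows, and their part in the values above was not tested. The 15 tested neural crest and head mesenchyme genes had a summed level of 830 and 493 CPM in cKO and 591 and 803 CPM in control libraries, with 0 called. The surface ectoderm list was at 71.1 and 52.4 CPM in cKO and 14.8 and 60.7 CPM in control libraries, with 0 of 8 called and control replicate 1 lowest. The hypothalamus and ventral midline list was at 25.9 and 98.8 CPM in cKO and 44.2 and 100 CPM in control libraries, with 1 of 10 lower. The diencephalon list was at 508 and 646 CPM in cKO and 606 and 641 CPM in control libraries, with 3 of 12 lower, and the midbrain and hindbrain list at 94.3 and 73.3 CPM in cKO and 30.6 and 48.5 CPM in control libraries, with 2 of 7 higher. The neural progenitor list was at 3090 and 3220 CPM in cKO and 4120 and 3560 CPM in control libraries, with 5 of 12 lower. Endothelial genes were at 294 and 297 CPM in cKO and 348 and 332 CPM in control libraries, with 0 of 10 called, and erythroid genes at 1890 and 1810 CPM in cKO and 2850 and 3070 CPM in control libraries, with 6 of 8 lower. Of the motor, sensory and other projection neuron list 0 of 6 tested were called, with a median log2 fold change of -0.18. With control replicate 2 left out, the median went from 0.76 to 2.40 for surface ectoderm and from 1.13 to 1.65 for midbrain and hindbrain genes. It went from 0.12 to 0.41 for diencephalon and from -0.13 to 0.14 for neural crest genes. Without control replicate 1 the surface ectoderm median was -0.11, and that of the hypothalamus list went from 0.35 to 0.01. Without cKO replicate 1 the neural crest median was -0.47 and the midbrain and hindbrain median 1.23.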

How the data were processed

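PolyA RNA libraries of mouse forebrain were made with a Vazyme VAHTS V8 kit, per the labels' protocols. The submitters' processing notes name HISAT2, featureCounts, DESeq2 and mm10 (GRCm38). The deposited table holds raw counts over exons of a RefSeq annotation, made with featureCounts 2.0.1 from paired-end reads and with no strand option, per the file headers. The authors' deposited comparison table holds normalized counts (a signal scaled per library), log2 fold changes, p-values and a Wald score; normalized counts and score were not used.

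Genes kept by filterByExpr (minimum count 10, 14235 genes) were compared in edgeR 4.0.16 (R 4.3.3; TMM, glmQLFit, glmQLFTest), with p-values adjusted by Benjamini-Hochberg over all of them; an adjusted p under 0.05 was called. Standard errors are the log2 fold change over the root of F. CPM use TMM library sizes, and RPKM divide by exon length in GENCODE M21, not in the annotation used for counting. The common biological coefficient of variation was 0.0785. Replicates were distinct (chi-square per degree of freedom 4.69 for cKO and 5.57 for control). On simulated counts for 14050 genes the test recovered 74.6% of 1.5-fold, 97.0% of 2-fold and 100% of 4-fold changes, with 14 false calls among 195. These shares rest on 67, 67 and 66 altered genes and are not split by level or by spread between replicates. They do not tell how often a change would be found in Isl1 or Onecut1, with few counts, or Tbr1, with controls 3.24-fold apart. Members and lists were chosen with earlier results of these data known. Named genes were all members, Chd7, paralogs, up to 4 called genes per list, the nearest patterns and, chosen after their values were seen, Neurog2, Reln, Ednrb, Emb, Ldb1, Map1b, Psmd14 and Parp8, besides Emx2 as a marker of the tissue and Prph, Tlx3, Mnx1 and Chat as markers of other cells, picked from their lists with values known; some list genes appear in counts only, and some are not reported here. Alternatives used limma 3.58.1 and DESeq2 1.42.0. Plots were drawn with matplotlib 3.10.9.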

Additional observations from a re-analysis of the deposited data

How the results depend on the processing

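The 2 members called lower and 0 called higher were also the counts under limma-voom, the DESeq2 Wald test, upper-quartile or DESeq2 size factors, erythroid genes removed and no filter. Testing against a 1.5-fold change (glmTreat) left 1 member lower, with 48 genes lower and 13 higher over all genes, against 303 and 223. A mean of at least 5 CPM left 1, since Isl1 was not tested there. Without 1 library the counts were 1 to 3 members lower and 0 to 1 higher, and over all genes 131 to 418 lower and 80 to 351 higher. The value of Lhx5 then ranged from -0.02 to 0.12, that of Ebf3 from -0.08 to 0.49, that of Onecut3 from -1.01 to 0.15 and that of Reln from -0.06 to 0.23. The replicate numbers shared by the groups are not said to mark a litter or batch, and deviations of same-numbered libraries had a correlation of -0.0131 over 11103 genes. With the replicate number as a block, 3 members were lower (Tbr1 at -1.80, adjusted p = 0.0130), as was the paralog Eomes (-1.06, adjusted p = 0.0104), and over all genes 211 were lower and 137 higher. Isl1 had 8 counts in its lowest library, Onecut1 17 and Pou4f1 18.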
